A study of Mus musculus with 4 samples.

Results

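Flicr is a long noncoding RNA gene beside Foxp3, the transcription factor gene that defines regulatory T cells, and the regions described here are the accessible regions on either side of Foxp3 on chromosome X. They were taken by position, as every region of the deposited lists that overlaps 7050000 to 7155499 (the side of Ppp1r3f and of the start of Flicr) or 7170001 to 7300000 (the 3' end of Foxp3 and the side of Ccdc22, Cacna1f and Syp) in the mm9 build. The bases between these stretches are called the Foxp3 interval, and regions overlapping it were set aside. This gave 23 of the 84476 regions of the series, 7 before the interval and 16 after it, and 6 regions were set aside. The rule uses position only, but it was chosen with earlier results of these data known.

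Accessibility was measured by ATAC-seq, in which a transposase cuts and tags open chromatin, so that more reads fall in more open regions. The study compared regulatory T cells from male NOD mice, a strain prone to autoimmune diabetes, of the genotypes Flicr WT (2 libraries) and Flicr KO, with Flicr knocked out (2 libraries). All mice were NOD and 8 to 10 weeks old, and each library held 50000 CD4+ TCRβ+ cells from the top 50% of CD25-high cells of spleen and lymph nodes. How the KO allele was made, which bases it lacks, and whether replicates are separate mice are not given in the sources used here. The spread behind each p-value is therefore that between these 4 libraries and may be technical. The test draws it in part from other regions of like level, so a standard error (SE) is not the spread of its region alone. The files name no genes and no mm9 annotation was used here, so neither the cell type nor the knockout could be checked, and no region was assigned to a gene.

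In the RefSeq gene table of GRCm38.p6, a later build used here only for the order of genes, Ppp1r3f comes first, followed by Flicr, Foxp3, Ccdc22, Cacna1f and Syp, and then by Prickle3, Plp2 and Magix. Flicr shares bases with both Ppp1r3f and Foxp3, and Ccdc22 shares bases with Foxp3. Ppp1r3f encodes a regulatory subunit of protein phosphatase 1. Ccdc22 encodes a component of a complex that sorts membrane proteins at endosomes. Cacna1f encodes a voltage-gated calcium channel subunit known from photoreceptors, and Syp encodes synaptophysin, a protein of synaptic vesicles, so these last genes are known mainly from neurons. Noncoding RNAs that lie against a coding gene can act in cis on the same chromosome, and male cells carry a single X.

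The promoter sequences of Flicr and Ppp1r3f are shown because they are the starts of the targeted RNA and of the coding gene it overlaps. They run 5′ to 3′ on the strand of each gene, from RefSeq in GRCm38.p6, at chrX:7573350-7573649 on the plus strand for Flicr and chrX:7574232-7574531 on the minus strand for Ppp1r3f, coordinates that cannot be set beside the mm9 ones. Capitals mark each CG dinucleotide.
Flicr: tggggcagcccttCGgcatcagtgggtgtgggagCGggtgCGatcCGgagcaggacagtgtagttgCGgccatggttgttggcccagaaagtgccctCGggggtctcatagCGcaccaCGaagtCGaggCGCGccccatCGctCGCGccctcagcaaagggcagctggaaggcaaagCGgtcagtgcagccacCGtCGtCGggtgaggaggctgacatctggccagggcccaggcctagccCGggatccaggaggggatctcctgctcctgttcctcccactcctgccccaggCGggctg
Ppp1r3f: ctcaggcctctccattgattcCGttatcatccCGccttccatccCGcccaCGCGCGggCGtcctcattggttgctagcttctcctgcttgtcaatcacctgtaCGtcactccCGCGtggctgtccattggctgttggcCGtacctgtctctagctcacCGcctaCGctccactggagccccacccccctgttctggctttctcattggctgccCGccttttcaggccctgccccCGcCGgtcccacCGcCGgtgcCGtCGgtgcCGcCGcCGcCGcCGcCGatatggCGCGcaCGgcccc
Both are rich in G and C, at 67.3% for Flicr and 66.7% for Ppp1r3f, where the median of 32851 promoter windows of the same length is 52.7%. Flicr has 20 CG dinucleotides and Ppp1r3f 29, against a median of 7. Of all windows, 75.2% have as many as Flicr or fewer, and 88.3% as many as Ppp1r3f or fewer. The GC box GGGCGG, searched on both strands, is in 35.7% of all windows, and occurs 1 time in Ppp1r3f and 0 times in Flicr. CCAAT, found in 37.4% of windows on either strand, occurs 3 times in Ppp1r3f and 0 times in Flicr. These matches describe the letters only. All 5 genes had a window, and the others were less GC-rich, from 43.7% in Cacna1f and 48.7% in Ccdc22 to 59% in Syp.

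Levels are in RPKM, reads per kilobase of region and per 1000000 reads of the library, as the authors deposited them. Total reads, as recovered from the RPKM values, were 19514512 to 41809276 per library, lowest in Flicr KO replicate 2. Of these, 24.2% (Flicr WT replicate 1) to 35.1% (Flicr KO replicate 1) fell in regions. The median region tested stood at 1.97 RPKM in Flicr WT replicate 1 and at 2.58 to 2.68 RPKM in the other libraries, so values are also given relative to the median of each library. Reads of both mates appear to be counted separately, so counting intervals are too narrow.

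None of the 23 regions passed the test between KO and WT at an adjusted p under 0.05 (limma on log2(RPKM + 1), adjusted p from 0.63 to 0.999 over all 80254 regions tested), where 0.0187% of all regions were called higher and 0% lower in KO. At unadjusted p under 0.05 limma also found 0 of the 23, against 9.06% of all regions, and limma voom on recovered reads called 0 as well, with 2 of 23 lower at unadjusted p under 0.05 when scaled to region totals, where 4.47% of all regions were. The regions leaned toward lower values in KO: 15 of 23 had a lower fitted value in KO and 8 a higher one, and their median log2 fold change was −0.10, while the median of all regions tested was 0.21 and 29.0% of those were lower. With each library centred on its median log2 value, 16 of 23 were lower, with a median of −0.27 against 0.04 for all regions, of which 45.4% were lower. Chromosome X outside this window had medians of 0.25 as deposited and 0.08 after centring. Without Flicr KO replicate 2, the shallowest library, 11 of 23 were lower and the median was 0.01. In that refit 28.9% of all regions were lower and their median was 0.24. After centring, 17 of 23 were lower without that library and the median was −0.16, against 43.3% and 0.066 for all regions.

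Counted by library, 6 of the 23 regions had both KO libraries below both WT libraries, a pattern found in 7.81% of all regions, and 5 had both KO libraries above both WT libraries, found in 33.2% of all. After centring these were 10 regions below, against 15.5% of all regions, and 1 above, against 22.1%. The other 12 overlapped on each scale. Of the 6 regions below as deposited, 3 had a mean under 1.1 RPKM and passed the filter on low values only through WT. In 7 of 23 regions the difference between the genotypes was larger than the wider of the gaps between replicates, and this held for 27.0% of all regions.

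**Figure D1:**
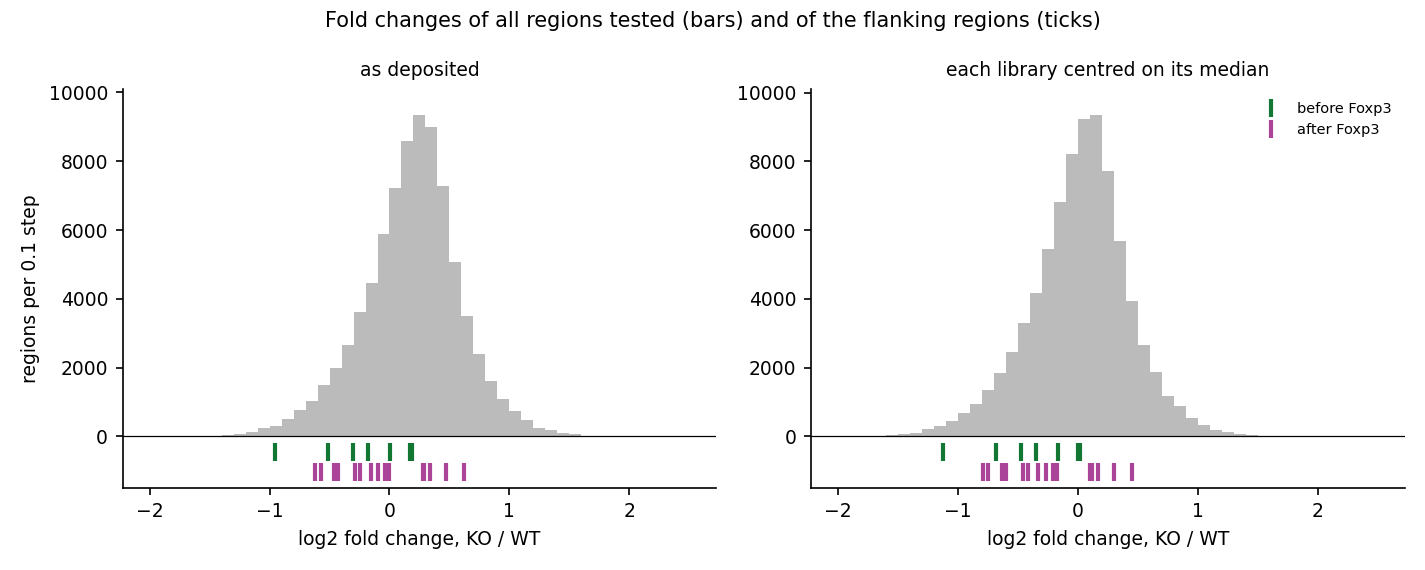
Distribution of the log2 fold change (KO over WT) of all 80254 regions tested as grey bars (regions per step of 0.1), as deposited on the left and centred on the right, with the 7 regions before and the 16 after the Foxp3 interval as ticks under the bars. The ticks span −0.96 to 0.62 as deposited, and most lie left of the peak of the bars.

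The regions were of ordinary height. Their median level was 2.43 RPKM (range 1.06 to 11.8), close to the 2.36 RPKM of all regions tested, and 14 of 23 exceeded the median of the whole list. Widths ran from 251 to 5088 bp with a median of 457 bp, against 381 bp for all regions tested. All 23 passed the filter on low values, but 4 had under 10 reads in a library, and reads summed over libraries ran from 46 to 2090. The 3 members under 1.1 RPKM, starting at 7154313, 7221747 and 7247297, had KO means of 0.410, 0.652 and 0.883 RPKM. Their WT means were 1.71, 1.47 and 1.24 RPKM, so they passed the filter, at 1.01 RPKM, only through WT. All 3 had both KO libraries below both WT libraries, as had 510 of the 3544 regions tested under 1.1 RPKM. Before the interval there were 6.64 regions per 100 kb, with an empty stretch of 67321 bp between 7051252 and 7118574, and after it 12.3 per 100 kb.

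**Figure D2:**
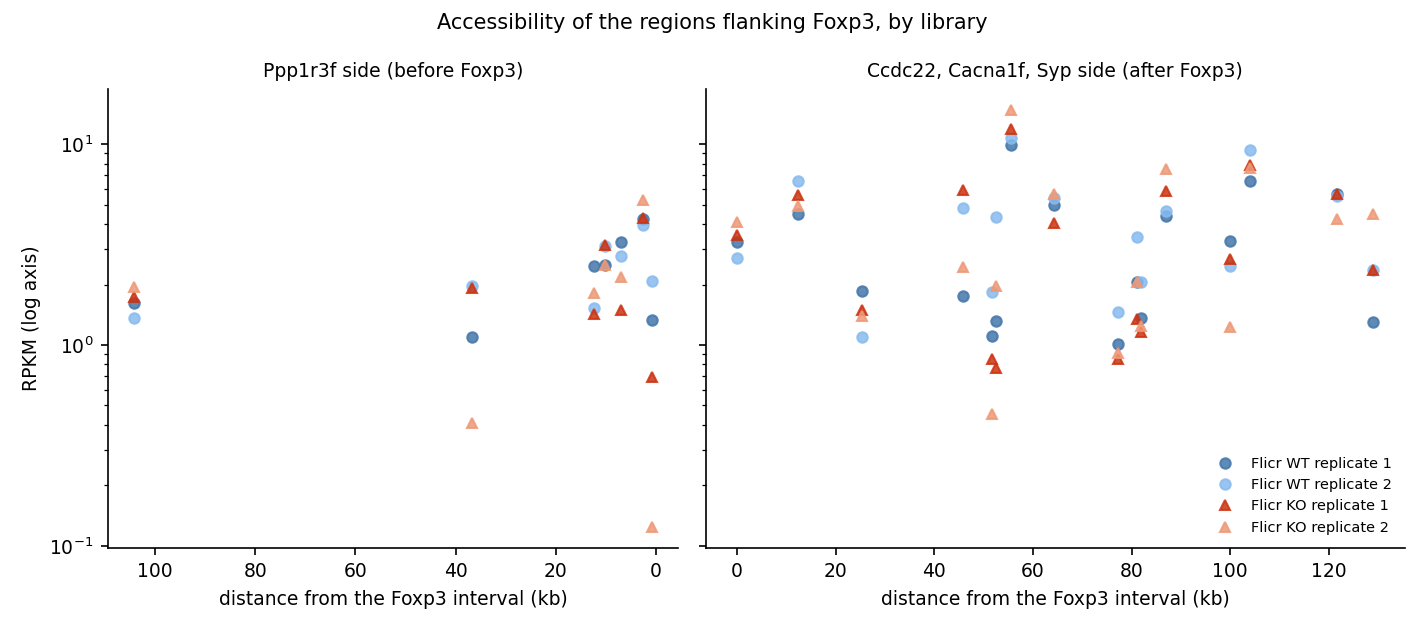
RPKM (log axis) of each of the 23 regions in each of the 4 libraries, by distance in kb from the Foxp3 interval, with the side before it on the left and the side after it on the right. WT libraries are circles and KO libraries triangles. The lowest point, 0.124 RPKM, is Flicr KO replicate 2 in the region 774 bp before the interval, and the highest region reaches 14.8 RPKM 55.5 kb after it.

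On the Ppp1r3f side, where the rule places the start of Flicr, the region nearest to the interval was the lowest in KO relative to WT. It was also near the floor. Its mean of 1.06 RPKM exceeded only 7.04% of all regions in level, and its KO mean of 0.410 RPKM was under the filter at 1.01 RPKM. The stricter filter described below left it out, among others, and the median log2 fold change before the interval then went from −0.18 to 0.0058. At chromosome X, 7154313 to 7154726, 414 bp wide and 774 bp before the interval, the WT libraries held 1.33 and 2.09 RPKM and the KO libraries 0.695 and 0.124 RPKM. Both KO libraries lay below both WT libraries. These levels rested on 16 and 28 reads in WT and on 12 and 1 in KO, where 1 read is the lowest value of the files and may stand for 0. Exact 95% Poisson intervals, for counting error only, were 0.758 to 2.15 and 1.39 to 3.02 RPKM in WT replicates 1 and 2, and 0.359 to 1.21 and 0.00314 to 0.691 RPKM in KO replicates 1 and 2, so those of WT replicate 1 and KO replicate 1 overlap. The log2 fold change was −0.96 (SE 0.59, 95% CI −2.14 to 0.22, limma adjusted p 0.63). Centred, it was −1.13 (SE 0.52, 95% CI −2.25 to −0.01, unadjusted limma p 0.0487, adjusted p 0.675), the only 1 of the 23 under 0.05 without adjustment. Of all 80254 regions tested, 1950 (2.43%) were so and lower and 3987 so and higher, and 0% passed with adjustment. Without Flicr KO replicate 2 the uncentred value was −0.66, and with a pseudocount of 0.1 it was −2.07. Relative to the median of its library, the region stood at 0.674 and 0.809 in WT and at 0.259 and 0.0466 in KO.

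Further out, 6939 bp before the interval, the 799-bp region at 7147763 to 7148561 also had both KO libraries below both WT libraries. It held 3.26 and 2.78 RPKM in WT (76 and 72 reads) and 1.50 and 2.18 RPKM in KO (50 and 34 reads). Means were 1.84 ± 0.484 for KO and 3.02 ± 0.335 for WT (SD, n = 2), with a log2 fold change of −0.51 (SE 0.38, 95% CI −1.27 to 0.25, limma adjusted p 0.693) and of −0.68 (SE 0.33, 95% CI −1.40 to 0.04, adjusted p 0.69) after centring. Voom on reads scaled to region totals gave −1.12 with an adjusted p of 0.43.

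Between these lay the broad region at 7148943 to 7152851, 3909 bp wide, wider than nearly all regions of the series (percentile 99.7). It did not share the direction of its neighbours. The WT libraries were at 4.24 and 3.98 RPKM and the KO libraries at 4.28 and 5.27 RPKM, on 402 to 700 reads. Its log2 fold change was 0.17 (SE 0.31, 95% CI −0.45 to 0.80), and 0.00 (95% CI −0.55 to 0.55) after centring, where the genotypes overlapped. Both 95% intervals exclude a change of 1 log2 unit in either direction.

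In 3 of the 4 regions more than 10 kb before the interval the genotypes overlapped as deposited. At 7143391 to 7145279, 1889 bp wide, WT held 2.50 and 3.10 RPKM and KO 3.14 and 2.50 RPKM (log2 fold change 0.01, SE 0.36). Relative to library medians this was 1.27 and 1.20 in WT and 1.17 and 0.937 in KO, with KO below WT and a centred log2 fold change of −0.17 (95% CI −0.80 to 0.47). Next to it, at 7142478 to 7143046, Flicr WT replicate 1 was highest at 2.47 RPKM and the other libraries held 1.43 to 1.80 RPKM. At 7118574 to 7118824 the lowest library was Flicr KO replicate 2 with 2 reads, and the others held 1.09 to 1.97 RPKM. The farthest, at 7050936 to 7051252, held 1.62 and 1.37 RPKM in WT and 1.74 and 1.95 RPKM in KO, with KO above WT as deposited and an overlap after centring.

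**Figure D3:**
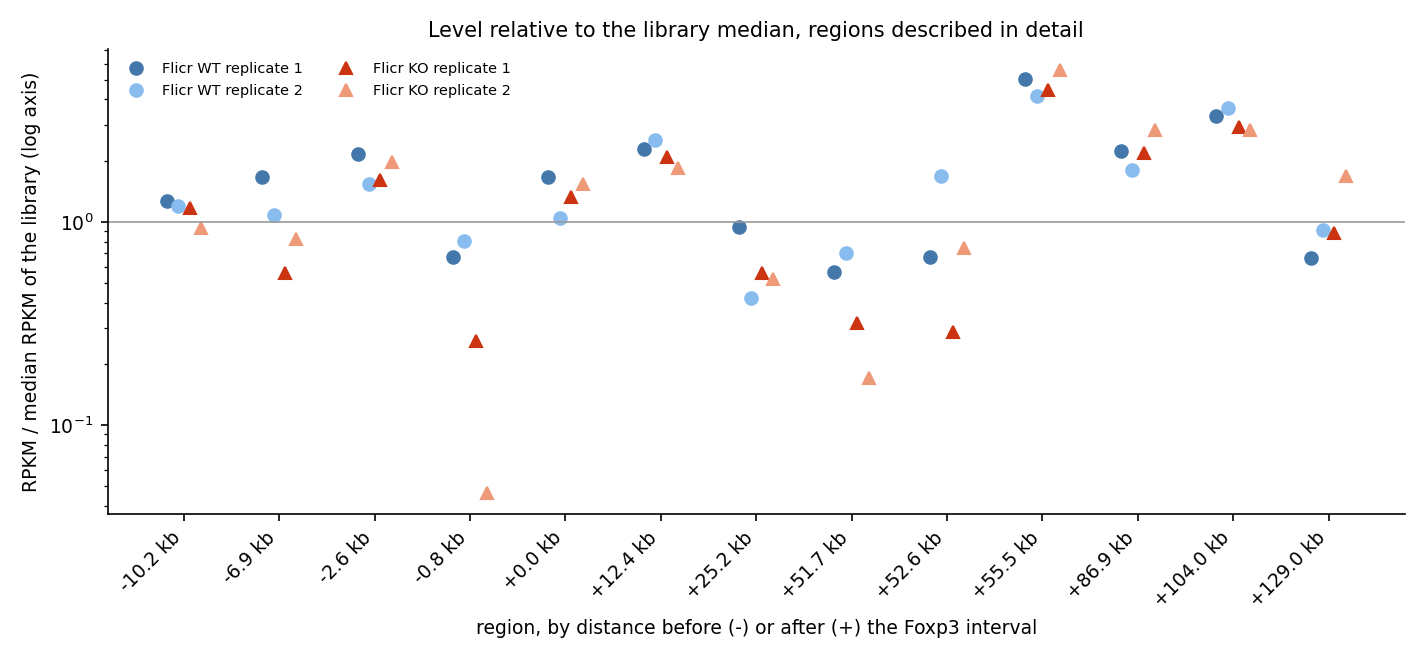
RPKM divided by the median RPKM of the library (log axis) for the 13 regions named by the fixed rule, ordered by position and labelled by distance before (minus) or after (plus) the Foxp3 interval, with 1 point per library. KO triangles lie under both WT circles at 6.9 and 0.8 kb before the interval, among others, and at 86.9 kb after it they overlap the circles on this scale.

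After the interval, the nearest region is the widest of all 23. It spans 7170025 to 7175112, the side that the rule describes as the 3' end of Foxp3, and is 5088 bp wide (percentile 99.9 of all widths). WT held 3.25 and 2.71 RPKM and KO 3.54 and 4.09 RPKM, on 406 to 752 reads, with both KO libraries above both WT libraries. The log2 fold change was 0.28 (SE 0.34, 95% CI −0.40 to 0.95, limma adjusted p 0.826). Relative to library medians it stood at 1.65 and 1.05 in WT and at 1.32 and 1.53 in KO, an overlap, with a centred log2 fold change of 0.10. The next regions, at 7182421 to 7182733 and at 7195223 to 7195703, had log2 fold changes of −0.04 and −0.00 (SE 0.30 and 0.44). The first held 4.50 and 6.53 RPKM in WT and 5.60 and 4.93 RPKM in KO. The second held 1.85 and 1.09 RPKM in WT and 1.49 and 1.39 RPKM in KO, so in both the KO libraries lay within the range of WT as deposited. Relative to library medians the first stood at 2.29 and 2.53 in WT and at 2.09 and 1.85 in KO, with KO below WT, and the second still overlapped.

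The most open region of the flanks lay 55.5 kb after the interval, at 7225537 to 7226471, above 93.6% of all regions in level. It held 9.93 and 10.7 RPKM in WT and 11.9 and 14.8 RPKM in KO, on 270 to 466 reads. Both KO libraries were above both WT libraries, with a log2 fold change of 0.34 (SE 0.25, 95% CI −0.17 to 0.85, limma adjusted p 0.696). Centred, this was 0.17 (95% CI −0.22 to 0.55) and the genotypes overlapped. The other highly accessible region of this side, at 7274034 to 7274494, was at 6.54 and 9.39 RPKM in WT and at 7.85 and 7.58 RPKM in KO (log2 fold change −0.02, SE 0.27), with KO between the WT libraries. Relative to library medians it stood at 3.33 and 3.63 in WT and at 2.93 and 2.84 in KO, with KO below WT, and the centred log2 fold change was −0.19 (95% CI −0.62 to 0.23).

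In 1 region both KO libraries stayed above both WT libraries after centring. This was 7256905 to 7257217, 86.9 kb after the interval, with 4.39 and 4.65 RPKM in WT (40 and 47 reads) and 5.83 and 7.56 RPKM in KO (76 and 46 reads). Its log2 fold change was 0.47 (SE 0.29, 95% CI −0.12 to 1.06, limma adjusted p 0.637), and 0.30 (95% CI −0.20 to 0.80) after centring. As ratios to the library median the values were 2.23 and 1.80 in WT and 2.17 and 2.84 in KO, which overlap. The highest fitted value belonged to the outermost region, 7298962 to 7299511, at 0.62 (SE 0.38, 95% CI −0.14 to 1.39, limma adjusted p 0.63). It held 1.31 and 2.36 RPKM in WT and 2.35 and 4.48 RPKM in KO, so the genotypes overlapped, and without Flicr KO replicate 2 the value was 0.27.

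A pair of neighbouring regions about 52 kb after the interval had the lowest fitted values of this side. At 7221747 to 7222085 WT held 1.11 and 1.83 RPKM and KO 0.849 and 0.455 RPKM, on 3 to 20 reads per library, with KO below WT (log2 fold change −0.58, SE 0.55, 95% CI −1.68 to 0.53). At 7222581 to 7222893 WT held 1.32 and 4.35 RPKM and KO 0.767 and 1.97 RPKM (−0.62, SE 0.43, 95% CI −1.49 to 0.25). The genotypes overlapped there, and without Flicr WT replicate 2 the value was −0.02. The remaining regions with KO below WT as deposited, named after their values were seen, lay at 7247297 to 7247970, 7251071 to 7251321 and 7251890 to 7252546, with log2 fold changes of −0.24, −0.47 and −0.28 and SEs from 0.39 to 0.53. At 7251071 to 7251321 the separation was slight, since Flicr WT replicate 1 and Flicr KO replicate 2 both rounded to 2.05 RPKM. The other 4 regions of this side, from 7215713 to 7291974, overlapped between the genotypes as deposited, with log2 fold changes from −0.43 to 0.29.

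The order of the fold change by distance from the interval depended on the classes and libraries used. Regions under 10 kb away (n = 4) had a median log2 fold change of −0.17, followed by −0.02 in the 6 at 10 to 50 kb and −0.16 in the 13 beyond 50 kb, and after centring −0.34, −0.19 and −0.33. Spearman's rho between distance and log2 fold change was 0.17 over the 23 regions, which share libraries and depth, given as a description. The median of the nearest class minus that of the farthest was −0.0097, and ranged from −0.24 (without Flicr KO replicate 2) to 0.20 (without Flicr KO replicate 1) when a library was left out. With classes of 25 kb, where the farthest held a single region, it was −0.66, and with a filter at the 25th percentile 0.27. The nearest class held both directions, as the regions at 774 and 6939 bp before the interval were lower in KO and the broad ones at 2649 bp before and 25 bp after it were not. By side, the median was −0.18 before the interval and −0.07 after it, and −0.35 and −0.24 after centring. In the Foxp3 interval, 4 of the 6 regions set aside were lower in KO as deposited, with a median of −0.19, and 2 were higher. The largest difference there was a higher value in KO, with a log2 fold change of 1.17 as deposited (limma adjusted p 0.134), larger than in any of the 23 flanking regions on that scale, and of 0.998 after centring.

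**Figure D4:**
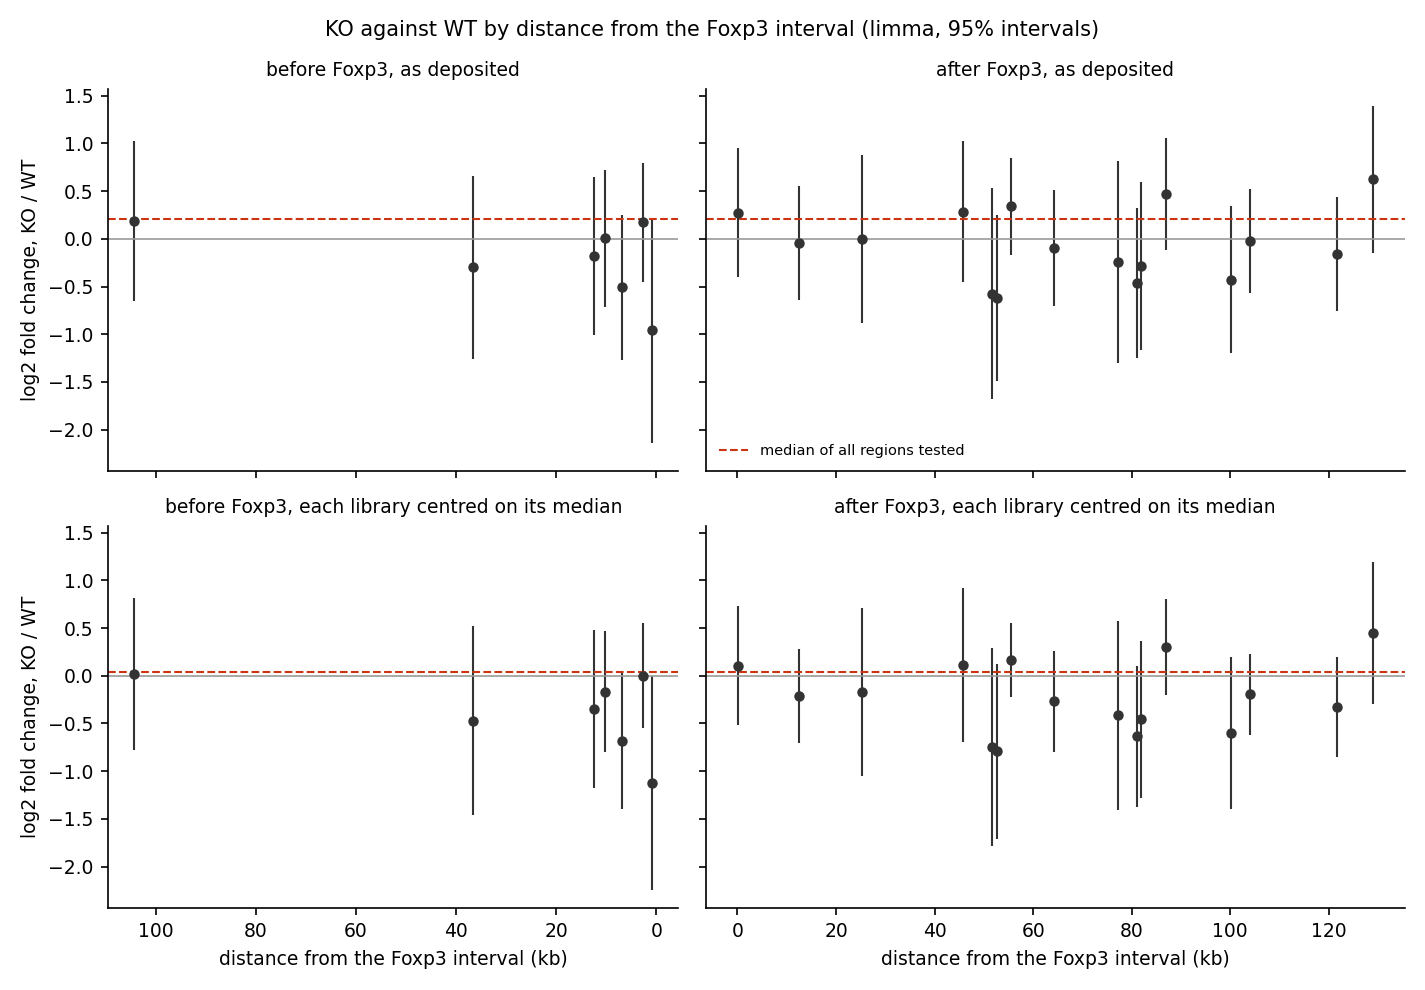
Log2 fold change (KO over WT) with 95% intervals from limma for the 23 regions, by distance in kb from the Foxp3 interval, before it on the left and after it on the right, as deposited in the upper row and centred in the lower row. The dashed line is the median of all regions tested, 0.21 above and 0.04 below. All intervals include 0 except that of the region 774 bp before the interval after centring.

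The fold change was also compared with the level of the regions. Over the 23 regions Spearman's rho between mean RPKM and log2 fold change was 0.61, and over all regions tested it was 0.26, again as descriptions. Mean RPKM includes the KO values, so it is not independent of the fold change. Of the 9 members at or under the median level of the whole list, 8 were lower in KO, with a median log2 fold change of −0.28. These 8 include the 3 under 1.1 RPKM that passed the filter only through WT, which favoured a lower KO value in them. All tested regions at or under the median level had a median of 0.09, and 41.9% of them were lower, or 57.2% after centring. Among the 14 members above that level, 7 were lower and 7 higher, with a median of −0.01. All tested regions above it had a median of 0.28, and 17.4% of them were lower, or 34.8% after centring. The 3 members wider than 1000 bp had a median of 0.17, where all regions of that width had 0.27. Summed over all 23 regions, reads per length were 3.43 and 3.59 RPKM in WT and 3.66 and 4.12 RPKM in KO, so the sum, which the broad regions dominate, was above WT in both KO libraries. As a share of region reads the flanks took 281 and 229 of every 1000000 reads in WT and 207 and 240 in KO, which overlap.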

How the data were processed

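ATAC-seq libraries of 4 samples (2 Flicr KO, 2 Flicr WT, grouped by their titles) were analysed as 1 list per library of the same 84476 regions. The authors deposited RPKM per region, per the file headers. Tools listed without roles in the submitters' processing notes are Picard 1.130, HOMER 4.6, DiffBind, Bowtie2 and SAMtools, with build mm9. How regions were merged, duplicates treated or reads shifted for the transposase is not given in the sources used here. Reads were recovered as RPKM times length less 1 bp, over the lowest such value of the library, which was taken as 1 read. This gave whole numbers in 100% of values (tolerance 0.001). Total reads and shares in regions follow from the same step.

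Regions with a mean under the 5th percentile (1.01 RPKM) were left out, which kept 80254. The test was limma 3.58.1 (R 4.3.3, trend and robust options) on log2(RPKM + 1), a scale that understates changes of low regions, with Benjamini-Hochberg adjustment over all regions tested. A repeat of the test centred the log2 values of every library on their median. The limma code was also run on simulated data. Such data need not carry the shift between these libraries, so no conclusion about either fit is drawn from that run. Distances run from the nearer end of a region to the Foxp3 interval. Values relative to the library median are RPKM over the median of the regions tested. Coordinates count from 1. Promoter sequences came from RefSeq. Python 3.11.15, pandas 2.3.3, scipy 1.17.1 and matplotlib 3.10.9 were used.

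Regions named were the 3 nearest and the 3 highest on each side, the 5 of smallest p, the 3 of largest centred change in each direction, and any at or under 3 reads in both libraries of a genotype (0 regions). The members and lists were chosen with earlier results of these data known.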

Additional observations from a re-analysis of the deposited data

How the results depend on the processing

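No flanking region passed the adjusted threshold in any refit, as deposited or centred, the smallest adjusted p being 0.232. Lowering the bar to an unadjusted p under 0.05 gave 1 region after centring, where 1950 lower and 3987 higher of all 80254 regions were under it. Over the refits on all libraries this count ran from 0 to 2 regions, all lower in KO, as with region total scaling (2). The shares of all regions are not given for each of these refits. Over all regions the 15 calls became 0 with median centring, quantile normalization, median RPKM scaling (chosen after seeing the data), region total scaling and without trend and robust options, 23 with a pseudocount of 0.1, 25 without a filter, 28 with voom on region totals, 30 at adjusted p under 0.10, 7274 at unadjusted p under 0.05, and 0 to 6458 when a library was left out. Such fits set 1 library against 2, so the lone library is assumed to vary like the others. With a replicate block, the count was 42 and the flanks still had 0 calls. Replicate numbers share only a number (correlation of deviations 0.00307).

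The median of the flanks, −0.097, became −0.27 (median centring), −0.32 (quantile), −0.30 (median RPKM), −0.37 (region totals), −0.43 (voom, region totals), −0.023 (filter at the 25th percentile, 19 regions left) and −0.25 to 0.012 with a library left out. The median of all regions, 0.21, became 0.041, −0.0044, 0.032, −0.032 and −0.039 under the same scalings in that order. It was 0.24 with the 25th percentile filter and 0.069 to 0.35 with a library left out. Before the interval, −0.18 became −0.35, −0.33, −0.35, −0.40 and −0.51 under those scalings in the same order, −0.077 with a pseudocount of 5, 0.0058 with the stricter filter, and −0.12 to 0.049 with a library left out. After the interval, −0.069 became −0.31 (quantile), −0.34 (region totals), −0.40 (voom, region totals) and, leaving out a library, from −0.26 (Flicr WT replicate 1 removed) up to 0.0057 (Flicr KO replicate 2 removed). These scalings remove a common shift by construction, and for the rest the cause was not tested. Of 206 refitted fold changes of 13 named regions, 187 kept their sign and 19, in 6 regions, changed it.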
